A study of Mus musculus with 14 samples.

Results

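The genes examined here were 9 markers of excitatory projection neurons, taken by gene name from the 55401 genes of a count table of mouse PiC neurons. They are the vesicular glutamate transporter genes Slc17a7, Slc17a6 and Slc17a8, the vesicular zinc transporter gene Slc30a3, the kinase gene Camk2a and the transcription factor genes Neurod6, Neurod2, Neurod1 and Tbr1. All 9 were listed in the table, 8 had enough counts to be tested, and Neurod1 had 0 counts in every library. PiC, PrL and MeA are left abbreviated, as in the labels. The 14 libraries were male PiC-MeA (n = 3), female PiC-MeA (n = 3), male PiC-PrL (n = 4) and female PiC-PrL (n = 4). All came from wild-type C57BL/6 mice in which AAVretro-EGFP, a virus taken up by axon endings and carried back to the cell body, had been placed in MeA or in PrL. Each tube pooled 4 to 5 EGFP-labelled neurons drawn into a micropipette, and polyadenylated RNA was amplified with SMART-Seq2, a full-length method without molecular identifiers. Neither the promoter of the virus nor the age of the mice is stated in the sources used here. The labels do not say that tubes came from separate animals, so the p-values measure only the spread between these tubes.

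Excitatory neurons load glutamate into synaptic vesicles through a vesicular glutamate transporter. Slc17a7 encodes VGLUT1, the main form in cortex, hippocampus and other pallial regions, Slc17a6 encodes VGLUT2, the main form in thalamus, hypothalamus and brainstem, and Slc17a8 encodes VGLUT3, found in small sets of neurons that often use another transmitter as well. The Neurod genes and Tbr1 encode transcription factors of the excitatory lineage of the forebrain, Camk2a encodes the alpha subunit of calcium/calmodulin-dependent kinase II, and Slc30a3 encodes ZnT3, which fills vesicles of zinc-containing glutamate neurons.

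The libraries held 6132985 to 10572618 counts in male PiC-MeA, 11755389 to 13818625 in female PiC-MeA, 14274982 to 15225936 in male PiC-PrL and 12077736 to 15392217 in female PiC-PrL. The male PiC-MeA libraries stood apart before any member was considered: 18964 to 20014 genes had a count in them, against 12479 to 14908 in the other 11 libraries. Their 6 endothelial and mural markers summed to 16.5 to 55.1 CPM (counts scaled to a common library size), against 0.0695 to 1.84 CPM elsewhere. Levels below are CPM after scaling with TMM factors, which correct for differences in RNA composition. Rbfox3, the gene of the neuronal marker NeuN, had 97.6 ± 53.5 CPM in male PiC-MeA libraries, 139 ± 16.1 CPM in female PiC-MeA, 140.4 ± 40.4 CPM in male PiC-PrL and 176 ± 36.8 CPM in female PiC-PrL (SD), and its lowest value in any tube was 46.5 CPM. Of the 8 pan-neuronal markers, 6 had counts in every library and their sum was 7680.3 to 9882 CPM in male PiC-MeA, 8306 to 11112 CPM in female PiC-MeA, 13075 to 20944 CPM in male PiC-PrL and 11236 to 16994 CPM in female PiC-PrL.

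Levels between genes were compared as TMM-scaled CPM per kilobase of annotated exon. Camk2a, Neurod6 and Slc30a3 led in female PiC-MeA, male PiC-PrL and female PiC-PrL, with Slc17a7, Tbr1, Neurod2 and Slc17a6 well below them and Slc17a8 near 0. In male PiC-MeA the order was Camk2a at 105 CPM per kb, Slc17a6 at 49.7, Neurod6 at 46.0, Slc30a3 at 29.9, Tbr1 at 6.30, Slc17a7 at 5.53, Neurod2 at 2.54 and Slc17a8 at 1.71 CPM per kb. In female PiC-MeA it was Camk2a at 145 CPM per kb, Neurod6 at 92.5, Slc30a3 at 45.8, Slc17a7 at 10.4, Tbr1 at 7.57, Neurod2 at 1.97, Slc17a6 at 0.672 and Slc17a8 at 0.387 CPM per kb. In both PiC-PrL groups Neurod6 came before Camk2a: 217 against 107 CPM per kb in males, and 175 against 92.4 CPM per kb in females. The ranges of Neurod6 and Camk2a did not overlap in male PiC-PrL (126 to 287 against 90.3 to 124 CPM per kb), whereas they overlapped in the other 3 groups. Among lower neighbours, Slc17a7 and Tbr1 overlapped in every group, as did Slc17a6 and Neurod6 in male PiC-MeA. Among the 14587 tested genes with an exon length, the Slc17a6 level stood at percentile 95.1 in male PiC-MeA, against 25.2 in female PiC-MeA, 25.7 in male PiC-PrL and 46.2 in female PiC-PrL. The percentile of Camk2a lay between 96.2 and 98.2 in the 4 groups, and that of Slc17a7 between 61.0 and 74.7.

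**Figure D1:**
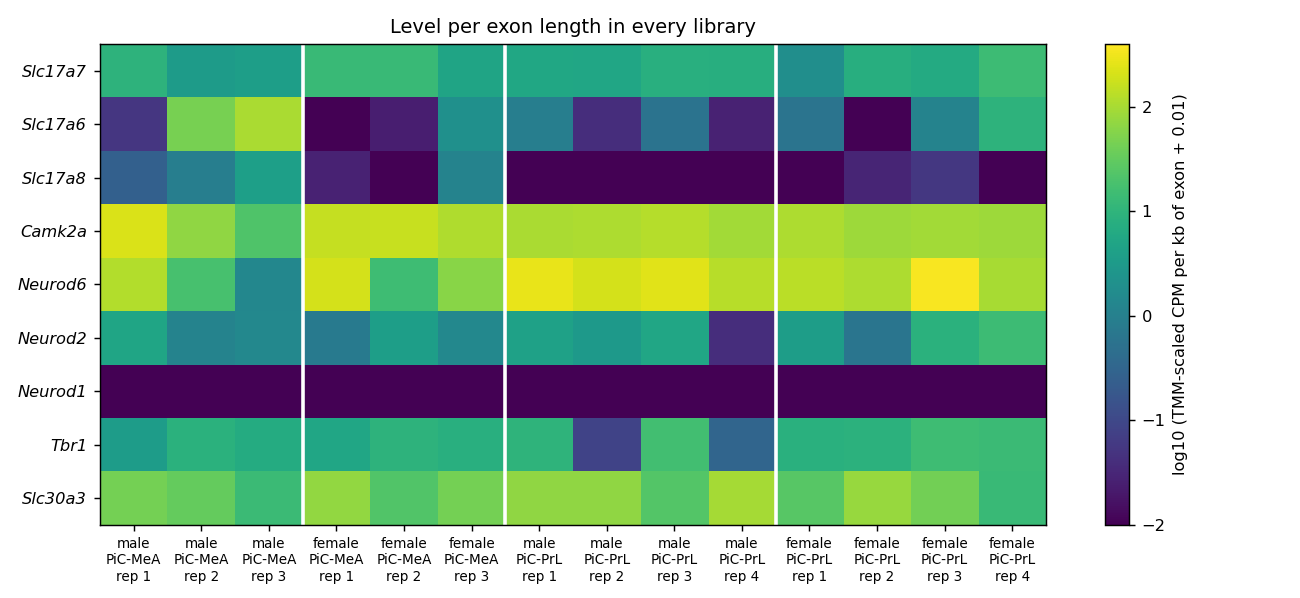
Level of the 9 genes (rows) in the 14 libraries (columns, male PiC-MeA, female PiC-MeA, male PiC-PrL and female PiC-PrL from left to right), as log10 of TMM-scaled CPM per kilobase of exon plus 0.01. Camk2a, Neurod6 and Slc30a3 are high in most columns, Slc17a6 is high in male PiC-MeA replicates 2 and 3, and Neurod1 is at 0 throughout.

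Levels of the vesicular glutamate transporters Slc17a6 and Slc17a8 differed widely between tubes. To show the DNA in front of these genes, and of Neurod6, which had its lowest level in the tube with the highest Slc17a6, the 250 bases upstream of their RefSeq starts (the first listed start, where Slc17a6 and Slc17a8 have 2 each) are printed 5′ to 3′ on the gene's strand (build GRCm38.p6). Capitals mark the E-box motif CANNTG, which reads the same on both strands and is the class of site bound by basic helix-loop-helix factors such as the Neurod proteins. The windows are chr7:45163671-45163920 on the plus strand for Slc17a7, chr7:51621580-51621829 on the plus strand for Slc17a6, chr10:89621250-89621499 on the minus strand for Slc17a8 and chr6:55681264-55681513 on the minus strand for Neurod6.
Slc17a7: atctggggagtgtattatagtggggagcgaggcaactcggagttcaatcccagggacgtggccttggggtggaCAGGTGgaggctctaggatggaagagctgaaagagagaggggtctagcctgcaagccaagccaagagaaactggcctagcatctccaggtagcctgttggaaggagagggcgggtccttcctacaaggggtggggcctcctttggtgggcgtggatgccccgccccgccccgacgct
Slc17a6: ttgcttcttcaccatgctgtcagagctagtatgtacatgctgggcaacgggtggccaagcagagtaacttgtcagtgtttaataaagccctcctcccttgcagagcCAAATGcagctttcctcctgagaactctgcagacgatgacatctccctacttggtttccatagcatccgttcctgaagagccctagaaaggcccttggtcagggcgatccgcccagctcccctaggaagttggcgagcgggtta
Slc17a8: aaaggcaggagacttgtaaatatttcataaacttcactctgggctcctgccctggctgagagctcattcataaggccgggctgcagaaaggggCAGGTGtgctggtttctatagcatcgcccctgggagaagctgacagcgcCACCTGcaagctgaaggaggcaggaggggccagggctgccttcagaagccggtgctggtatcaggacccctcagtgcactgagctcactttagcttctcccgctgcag
Neurod6: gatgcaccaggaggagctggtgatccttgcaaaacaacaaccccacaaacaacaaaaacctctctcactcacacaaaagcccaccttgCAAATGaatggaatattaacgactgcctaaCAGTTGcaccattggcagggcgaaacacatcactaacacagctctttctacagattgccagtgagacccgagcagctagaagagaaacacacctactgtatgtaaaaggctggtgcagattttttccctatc
The windows held 1 E-box for Slc17a7, 1 for Slc17a6, 2 for Slc17a8 and 2 for Neurod6, and the windows of the second starts, not printed, held 2 for Slc17a6 and 1 for Slc17a8, all of them matches of letters only. An E-box was present in 66.2% of 32841 windows of the same length in the RefSeq table, so having 1 is common. In all, 8 of the 9 members had windows in the table.

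Slc17a7 (ENSMUSG00000070570.5, chr7:45163949-45176142 on the plus strand, mm10) was detected in all 14 libraries. Its level was 51.1, 18.0 and 20.2 CPM in male PiC-MeA, 72.3, 69.5 and 26.7 CPM in female PiC-MeA, 29.4, 28.7, 43.7 and 41.3 CPM in male PiC-PrL and 9.98, 40.7, 34.5 and 77.8 CPM in female PiC-PrL. The lowest and the highest of all 14 libraries were both female PiC-PrL, and every pair of groups overlapped. Group means were 29.8 ± 18.5 CPM in male PiC-MeA, 56.2 ± 25.6 CPM in female PiC-MeA, 35.8 ± 7.85 CPM in male PiC-PrL and 40.8 ± 28.0 CPM in female PiC-PrL (SD, n = 3, 3, 4 and 4). Fitted differences were small against their errors, at -0.26 ± 0.98 log2 units for PiC-MeA minus PiC-PrL in males and 0.46 ± 0.97 in females (log2 ± SE, edgeR).

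Slc17a6 (ENSMUSG00000030500.6, chr7:51622006-51671119 on the plus strand) ran over more than 3 orders of magnitude between tubes. Its counts were 3, 2995 and 3890 in male PiC-MeA, 0, 1 and 168 in female PiC-MeA, 76, 2, 44 and 1 in male PiC-PrL and 39, 0, 85 and 729 in female PiC-PrL. As levels these were 0.237, 243 and 562 CPM in male PiC-MeA, 0, 0.0756 and 10.8 CPM in female PiC-MeA, 4.87, 0.163, 3.06 and 0.0924 CPM in male PiC-PrL and 3.14, 0, 6.06 and 51.1 CPM in female PiC-PrL. Replicates 2 and 3 of male PiC-MeA were high and replicate 1 was low, so male PiC-MeA overlapped both female PiC-MeA and male PiC-PrL. The log2 difference was 7.02 ± 2.40 for PiC-MeA minus PiC-PrL in males and 6.20 ± 2.63 for male minus female in PiC-MeA (SE). The sex difference was 12.30 without female PiC-MeA replicate 3, which left 0 and 1 counts in that group, and 4.99 without male PiC-MeA replicate 3, so its size depends on single libraries and on the prior count. Neither passed edgeR's quasi-likelihood test with Benjamini-Hochberg adjustment over the 14599 tested genes, with adjusted p = 0.0956 and 0.358. The sex by projection term was 9.07 ± 3.26 log2 units with an edgeR adjusted p of 0.185.

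Slc17a8 (ENSMUSG00000019935.16, chr10:89574020-89621253 on the minus strand) had 15, 53 and 130 counts in male PiC-MeA, 1, 0 and 84 in female PiC-MeA, 0, 0, 0 and 0 in male PiC-PrL and 0, 1, 3 and 0 in female PiC-PrL. Only 4 libraries held 10 or more counts, namely all 3 male PiC-MeA tubes and replicate 3 of female PiC-MeA. Without the male PiC-MeA libraries 7 members had enough counts to be tested, and Slc17a8 was not among them. Its place in the test thus rests on the group where it was highest. In CPM it was 1.18, 4.31 and 18.8 in male PiC-MeA, against 0 in all 4 male PiC-PrL libraries. A count of 0 allows up to 3 counts, or 0.192 to 0.277 CPM in those 4 libraries, counting error only. Against that limit per library the male PiC-MeA mean of 8.09 ± 9.38 CPM (SD, n = 3) was at least 35.1-fold higher. Without replicate 3 the mean was 2.74 CPM and the bound at least 11.9-fold. The edgeR adjusted p was 0.0795 in males and 0.0552 for the projection difference averaged over both sexes, neither under 0.05. The fitted values themselves (9.68 ± 2.77 and 7.05 ± 1.77 log2 units) depend on the prior count added to the zeros and are not sizes of change.

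Counted together, the 3 transporters gave each tube a make-up. Slc17a6 made up 0.450%, 91.6% and 93.5% of vesicular glutamate transporter counts in male PiC-MeA, 0%, 0.109% and 25.2% in female PiC-MeA, 14.2%, 0.565%, 6.54% and 0.223% in male PiC-PrL and 23.9%, 0%, 14.9% and 39.7% in female PiC-PrL. In the highest of these tubes the Wilson 95% interval was 92.7% to 94.2% of 4160 counts, and in female PiC-PrL replicate 4 it was 37.5% to 41.9% of 1838 counts. Slc17a7 was the majority transporter in 12 of the 14 tubes, and Slc17a6 in the other two, both male PiC-MeA. Slc17a8 reached its largest share, 12.6%, in female PiC-MeA replicate 3. Per kilobase of exon, the Slc17a6 to Slc17a7 ratio ran over 0.00462 to 27.7 in male PiC-MeA, 0 to 0.404 in female PiC-MeA, 0.00223 to 0.166 in male PiC-PrL and 0 to 0.656 in female PiC-PrL. With 4 to 5 pooled cells per tube, a tube with fewer cells of a kind and a tube with less RNA per cell cannot be told apart.

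**Figure D2:**
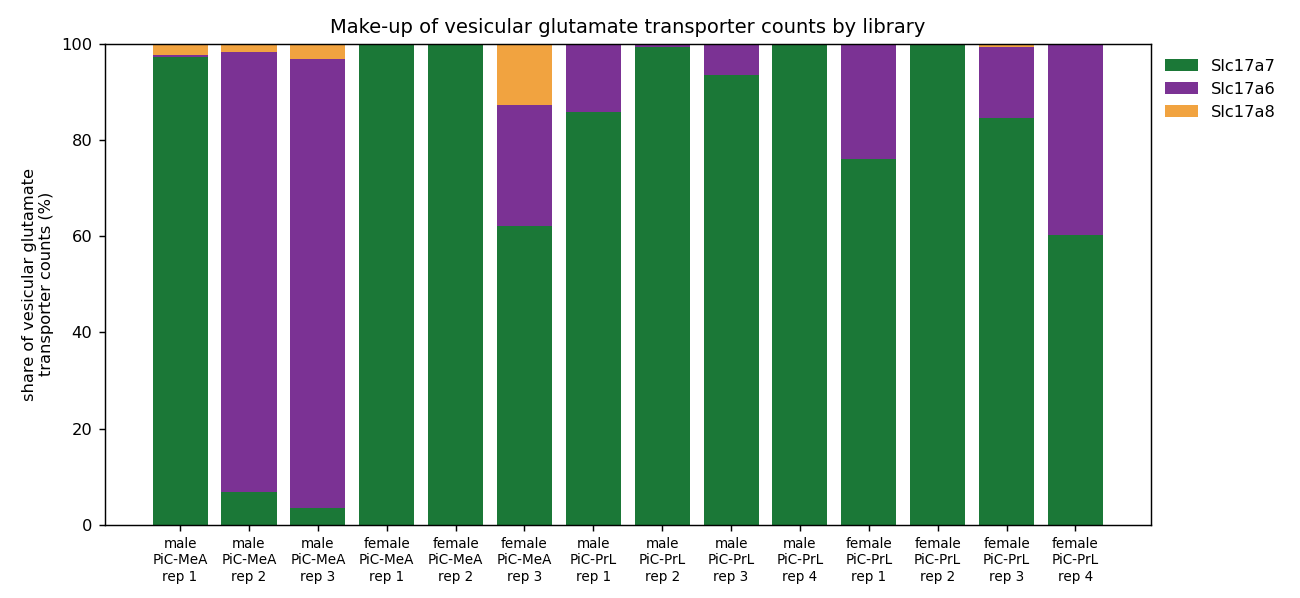
Share of Slc17a7, Slc17a6 and Slc17a8 in the summed counts of the 3 genes (vertical axis, %) in each library, with male PiC-MeA first and female PiC-PrL last. Slc17a6 takes 91.6% and 93.5% in male PiC-MeA replicates 2 and 3, and Slc17a7 takes the largest share in the other 12 libraries.

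Markers of some other cells moved with part of this pattern. The 12 inhibitory neuron markers summed to 188, 882 and 3231 CPM in male PiC-MeA replicates 1 to 3, with Gad1, which encodes a GABA-making enzyme, at 27.9, 156 and 815 CPM. They summed to 44.7 to 243 CPM in female PiC-MeA, 138 to 520 CPM in male PiC-PrL and 365 to 5692 CPM in female PiC-PrL, with the highest value in female PiC-PrL replicate 4, the tube with the most Slc17a6 of that group. Of the 12 markers, 8 to 11 had a count in each library. Gad1 had 888, 49.6, 47.0 and 339 CPM in female PiC-PrL. Its highest level was thus in replicate 1 of that group, where Slc17a6 had 3.14 CPM. Gad1 was at 1.71 to 33.0 CPM in female PiC-MeA and 4.87 to 57.8 CPM in male PiC-PrL. Slc32a1, the vesicular GABA transporter, reached at most 3.01 CPM and was at 0 in all 7 female libraries. The 8 astrocyte markers summed to 1050.2 to 1245 CPM in male PiC-MeA, 318 to 412 CPM in female PiC-MeA, 633 to 1969 CPM in male PiC-PrL and 686 to 1172 CPM in female PiC-PrL, and Aqp4, an astrocyte water channel, had 37.2, 147 and 55.3 CPM in male PiC-MeA and 0 in all 3 female PiC-MeA libraries. The 6 oligodendrocyte markers summed to 350 to 1979 CPM in male PiC-MeA and 445 to 2327 CPM in female PiC-MeA. In PiC-PrL they summed to 445 to 2160 CPM in males and 335 to 2037 CPM in females. The 6 microglia markers summed to 86.8 to 215 CPM in male PiC-MeA and 67.1 to 275 CPM in female PiC-MeA. In PiC-PrL microglia markers summed to 99.2 to 642 CPM in males and 109 to 193 CPM in females. Mbp, an oligodendrocyte gene, had 268, 587 and 1012 CPM in male PiC-MeA and 98.1 to 846 CPM in the other groups. Cx3cr1, a microglia gene, had 46.1, 23.8 and 51.4 CPM in male PiC-MeA and 0.454 to 136 CPM in the other groups. Mitochondrial genes took 4.80%, 9.23% and 15.3% of counts in male PiC-MeA replicates 1 to 3, the order of their Slc17a6 and Slc17a8 levels and the reverse of their Camk2a and Neurod6 levels. The mitochondrial share was 3.29% to 3.95% in female PiC-MeA, 3.81% to 8.39% in male PiC-PrL and 4.57% to 12.2% in female PiC-PrL, so male PiC-MeA replicate 3 had the highest share of the 14 libraries. The other groups did not keep this order. Their tubes with the highest share had the fewest Slc17a6 counts: 0 in female PiC-MeA replicate 1, 1 in male PiC-PrL replicate 4 and 0 in female PiC-PrL replicate 2. The part of these cells and of the mitochondrial share in the Slc17a6, Slc17a8, Camk2a and Neurod6 levels was not tested.

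Slc30a3 (ENSMUSG00000029151.14, chr5:31086106-31108237 on the minus strand), the vesicular zinc transporter, was present in every library. Its level was 123, 91.6 and 38.8 CPM in male PiC-MeA, 204, 62.8 and 123 CPM in female PiC-MeA, 197, 197, 65.9 and 273 CPM in male PiC-PrL and 72.1, 222, 120.4 and 37.9 CPM in female PiC-PrL. The 4 groups overlapped, and the lowest value, in female PiC-PrL replicate 4, was close to that of male PiC-MeA replicate 3. Means were 84.6 ± 42.7 CPM in male PiC-MeA and 183 ± 85.9 CPM in male PiC-PrL (SD, n = 3 and 4), a log2 difference of -1.11 ± 0.68 (SE) with edgeR adjusted p = 0.398. In females the means were 129.8 ± 71.0 CPM in PiC-MeA and 113 ± 80.1 CPM in PiC-PrL (SD, n = 3 and 4), a log2 difference of 0.20 ± 0.66 (SE).

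Camk2a (ENSMUSG00000024617.16, chr18:60925618-60988152 on the plus strand) stayed between 629.6 and 1209.8 CPM outside male PiC-MeA. Its level was 1670.3, 521 and 159 CPM in male PiC-MeA, 1197, 1209.8 and 844 CPM in female PiC-MeA, 781, 813, 926 and 674 CPM in male PiC-PrL and 819.8, 635, 674 and 629.6 CPM in female PiC-PrL. Male PiC-MeA held both the highest and the lowest of all 14 values. The female PiC-MeA range lay above the female PiC-PrL range, with means of 1083 ± 207 CPM in female PiC-MeA and 689.7 ± 89.0 CPM in female PiC-PrL (SD, n = 3 and 4). This separation was shared with 4.47% of tested genes in the same direction, and the fitted log2 difference of 0.65 ± 0.48 (SE) had an edgeR adjusted p of 0.746. In males the fitted difference was -0.028 ± 0.49 log2 units (SE), and it was 0.40 without male PiC-MeA replicate 3 and -1.32 without replicate 1.

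Neurod6 (ENSMUSG00000037984.9, chr6:55677822-55681263 on the minus strand), a transcription factor gene of pallial excitatory neurons, had the highest mean level of the member transcription factors in each group. Per kilobase of exon, Tbr1 was higher than Neurod6 only in male PiC-MeA replicate 3, at 6.71 against 1.34 CPM per kb. Neurod2 was higher than Neurod6 in that tube as well, at 1.42 CPM per kb. Neurod6 had 255, 38.9 and 2.89 CPM in male PiC-MeA, 436, 32.1 and 129 CPM in female PiC-MeA, 617, 438, 543 and 271 CPM in male PiC-PrL and 288, 229.9, 772 and 212 CPM in female PiC-PrL. The highest male PiC-MeA tube lay just below the lowest male PiC-PrL tube, while the female groups overlapped. This lower position without overlap was shared with 6.23% of tested genes. The Neurod6 mean was 99.0 ± 136 CPM in male PiC-MeA and 467 ± 150.1 CPM in male PiC-PrL (SD, n = 3 and 4), and 199 ± 211 CPM in female PiC-MeA and 375 ± 267 CPM in female PiC-PrL. The log2 differences were -2.24 ± 1.01 in males and -0.92 ± 0.96 in females, and -1.58 ± 0.70 averaged over both sexes (SE). Without male PiC-MeA replicate 1 the Neurod6 value was -4.56 in males. None passed edgeR's test, with adjusted p = 0.198, 0.893 and 0.238. Set against Camk2a in the same tube, per kilobase of exon, Neurod6 stood at 0.0632 to 0.530 times Camk2a in male PiC-MeA and 0.0920 to 1.27 times in female PiC-MeA, against 1.40 to 2.74 times in male PiC-PrL and 1.17 to 3.98 times in female PiC-PrL.

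Neurod2 (ENSMUSG00000038255.6, chr11:98325415-98329648 on the minus strand), a close relative of Neurod6 in the same lineage, was far lower. Its level was 15.9, 3.57 and 4.48 CPM in male PiC-MeA, 2.44, 11.7 and 4.44 CPM in female PiC-MeA, 13.6, 9.78, 16.4 and 0.0924 CPM in male PiC-PrL and 11.6, 1.93, 27.2 and 44.7 CPM in female PiC-PrL. Male PiC-PrL replicate 4 held 1 Neurod2 count beside 2935 Neurod6 counts, so the relatives did not keep a fixed ratio between tubes. Per kilobase of exon Neurod6 was 0.943 to 23.5 times Neurod2 in male PiC-MeA, 4.00 to 261 times in female PiC-MeA, 48.4 to 4289 times in male PiC-PrL and 6.92 to 174 times in female PiC-PrL. The groups overlapped in every comparison, with log2 differences between PiC-MeA and PiC-PrL of -0.32 ± 1.68 in males and -1.78 ± 1.77 in females (SE).

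Neurod1 (ENSMUSG00000034701.9, chr2:79452521-79456751 on the minus strand), a factor of earlier stages of the lineage and of dentate granule cells, was listed at 0 in all 14 libraries. The limit that 0 counts allow was 0.192 to 0.433 CPM across the libraries. Of the 2729 exon bases of Neurod1, 201 are shared with annotated exons of Cerkl and 154 with those of Gm26755. Cerkl reached 458 counts in a library. Tubb3 and Nefl, which neurons use widely, were at 0 in the same libraries as well, while Snap25 had 4238 to 16546 CPM, so the 0 of Neurod1 is given as listed and not as absence.

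Tbr1 (ENSMUSG00000035033.15, chr2:61802930-61814114 on the plus strand), a T-box factor of early-born and deep-layer excitatory neurons, was detected in all 14 libraries. It had 18.9, 48.0 and 36.8 CPM in male PiC-MeA, 28.9, 52.2 and 43.5 CPM in female PiC-MeA, 53.6, 0.407, 88.4 and 1.66 CPM in male PiC-PrL and 44.9, 48.7, 82.8 and 75.8 CPM in female PiC-PrL. In male PiC-PrL the tubes split, with replicates 2 and 4 at 5 and 18 counts and replicates 1 and 3 at 836 and 1272 counts. Means were 34.6 ± 14.7 CPM in male PiC-MeA and 36.0 ± 42.8 CPM in male PiC-PrL (SD, n = 3 and 4), and 41.6 ± 11.8 CPM in female PiC-MeA and 63.1 ± 19.0 CPM in female PiC-PrL. The log2 difference between PiC-MeA and PiC-PrL was -0.059 ± 1.25 in males and -0.60 ± 1.26 in females (SE), and all groups overlapped. In the males its sign turned with the size factors, the filter on low counts and the tool used.

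**Figure D3:**
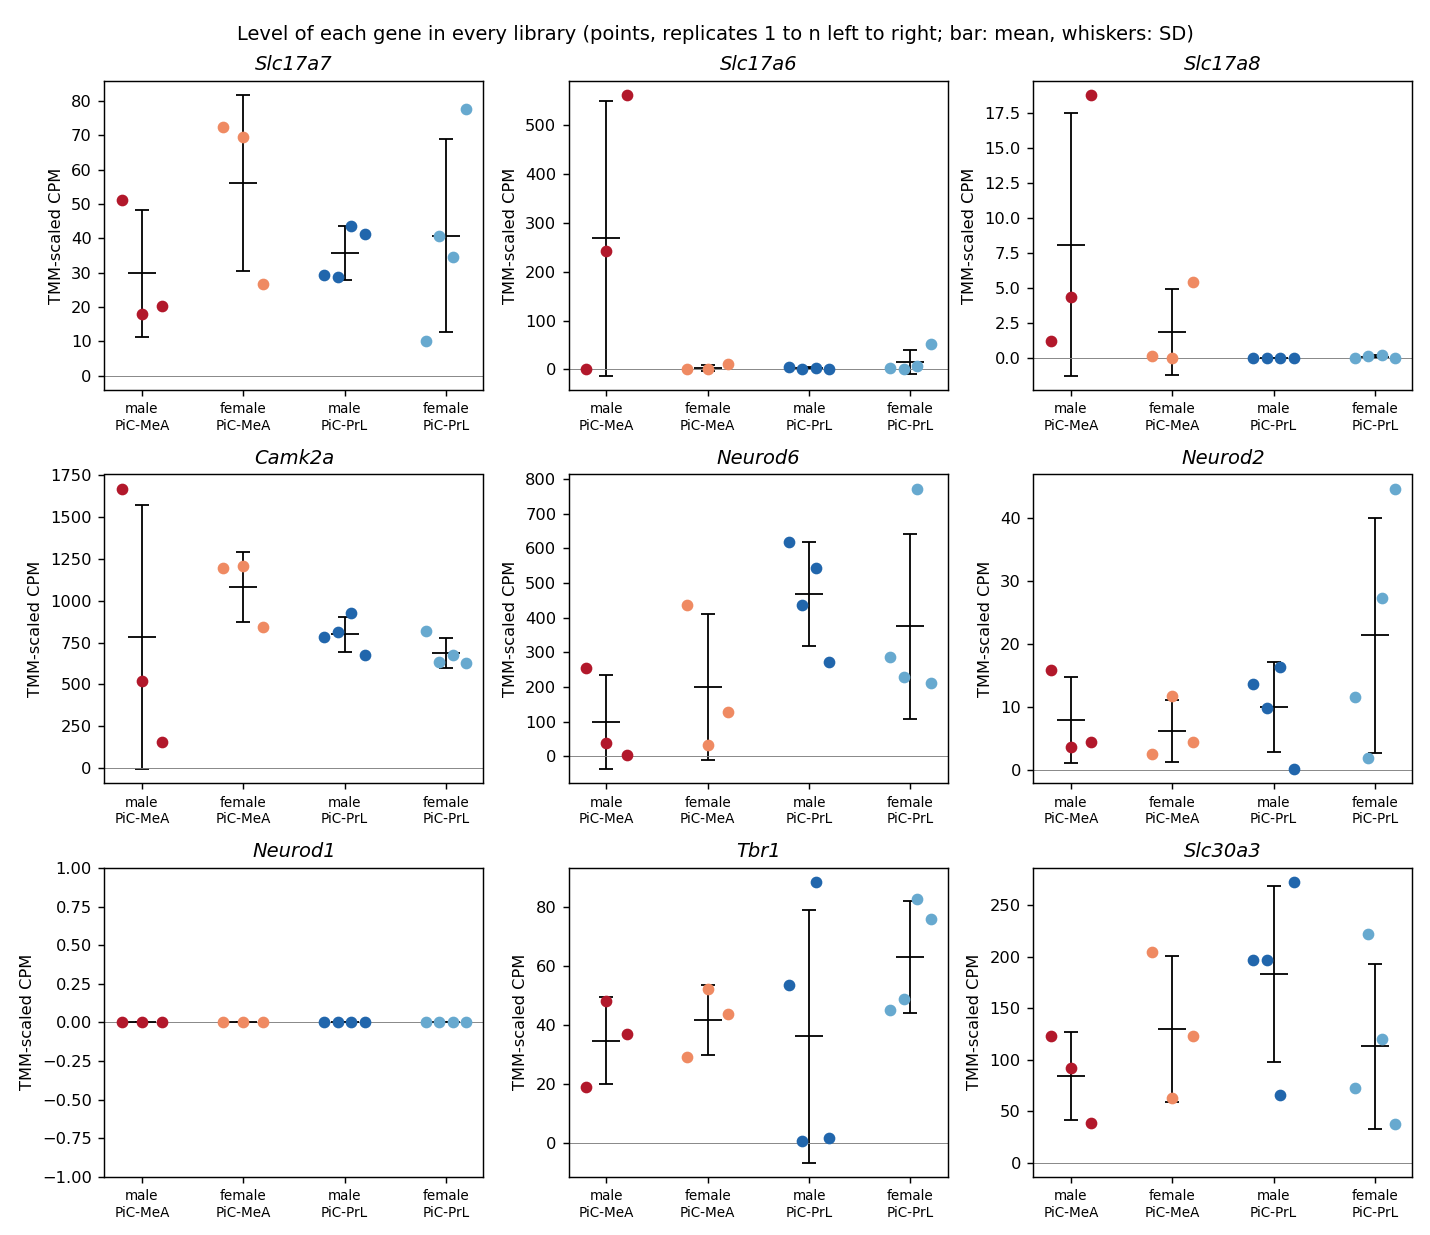
TMM-scaled CPM (vertical axes, linear, a scale for each gene) of the 9 genes in every library, in the order male PiC-MeA, female PiC-MeA, male PiC-PrL and female PiC-PrL. Points are libraries, the long bar is the mean and the whiskers are the SD. Slc17a6 and Slc17a8 reach their highest levels in male PiC-MeA replicate 3, where Neurod6 and Camk2a are at their lowest.

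No member passed an adjusted p of 0.05 in any of the 7 edgeR comparisons. For PiC-MeA against PiC-PrL in males, 88 of 14599 genes passed (0.603% of genes tested), and for the projection difference averaged over both sexes 120 passed (0.822%). The sex difference averaged over both projections had 2 genes (0.0137%). The remaining comparisons had 0 genes past edgeR's threshold, with unadjusted p under 0.05 for 1619 genes (11.1%) in PiC-MeA against PiC-PrL in females, 1805 (12.4%) in male against female PiC-MeA, 2093 (14.3%) in male against female PiC-PrL and 2272 (15.6%) in the sex by projection term. Other tools called more genes and some members. For the projection difference in males DESeq2 called 2022 genes (13.9%), among them Slc17a6 (adjusted p = 0.00439) and Slc17a8 (adjusted p = 0.0113), and limma voom with quality weights called 2617 genes (17.9%), among them Slc17a8 (adjusted p = 0.00452) and Neurod6 (adjusted p = 0.0277). edgeR without the filter on low counts called Slc17a6 (adjusted p = 0.000102) and Neurod6 (adjusted p = 0.0113) among 0.57% of genes in the same comparison, and also Slc17a6 between the sexes in PiC-MeA (adjusted p = 0.0205; 0.161% of genes). For sex by projection DESeq2 called 1156 genes (7.92%), with Slc17a6 among them (adjusted p = 0.0198), and edgeR without the filter called it too (adjusted p = 0.000789; 0.301% of genes). For the projection average DESeq2 called Slc17a8 among 10.2% of genes, limma voom called Slc17a8 and Neurod6 among 8.75%, and edgeR without the filter called the same genes among 1.62%. With only the male groups in the edgeR fit Slc17a8 passed (adjusted p = 0.0456) among 7.55% of genes. Under the filter on low counts, Slc17a8 was tested only through the male PiC-MeA libraries, where it was highest. Its calls are therefore not independent of that group.

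Between the sexes no member passed edgeR's test within either projection, and the values of Slc17a6 in PiC-MeA are given above. For male minus female in PiC-MeA the log2 values were -0.91 ± 1.05 for Slc17a7, -0.47 ± 0.52 for Camk2a, -0.62 ± 0.71 for Slc30a3, -1.01 ± 1.01 for Neurod6, 0.36 ± 1.79 for Neurod2 and -0.26 ± 1.33 for Tbr1 (SE). For male minus female in PiC-PrL they were -0.19 ± 0.90 for Slc17a7, -2.87 ± 1.95 for Slc17a6, 0.21 ± 0.45 for Camk2a, 0.70 ± 0.61 for Slc30a3, 0.32 ± 0.87 for Neurod6, -1.10 ± 1.57 for Neurod2 and -0.81 ± 1.16 for Tbr1 (SE). Single libraries moved several of these. In PiC-MeA the Camk2a difference was -1.76 without male replicate 1 (edgeR adjusted p = 0.156) and -0.043 without male replicate 3, and without male replicate 1 it was -1.66 for Slc17a7 and -3.33 for Neurod6. In PiC-PrL the Slc17a6 difference was -0.58 without female replicate 4. Of the values listed here from the fit of all 14 libraries, the smallest edgeR adjusted p was 0.584, for Slc17a6 in PiC-PrL. Slc17a8 is not in these lists, and its edgeR adjusted p was 0.985 in PiC-MeA and 0.508 in PiC-PrL. Both PiC-PrL groups lay at or under 3 counts for it. Averaged over both sexes, PiC-MeA minus PiC-PrL gave 2.49 ± 1.42 log2 units for Slc17a6 (edgeR adjusted p = 0.410), and this value was -0.77 without female PiC-MeA replicate 3. For Slc17a8 in females the fitted difference was 4.41 ± 2.28 log2 units (SE, edgeR adjusted p = 0.505), and it was -0.79 without the same library, which held 84 Slc17a8 counts beside 1 and 0 in the other female PiC-MeA libraries.

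The member genes showed no common direction. Of the 8 tested, 2 were positive and 6 negative for PiC-MeA minus PiC-PrL in males, with a median of -0.16 log2 units, against 0.16 over all tested genes. In females 4 were positive and 4 negative, with a median of -0.20 against -0.061 over all genes. For male minus female in PiC-MeA 3 were positive and 5 negative, with a median of -0.37 against 0.12 over all genes. For male minus female in PiC-PrL the groups of all 8 tested members overlapped, where 3.51% of tested genes did not. Between male and female PiC-MeA all 8 overlapped as well, where 26.2% of tested genes did not. In PiC-MeA against PiC-PrL in males Slc17a8 (higher) and Neurod6 (lower) did not overlap, where 19.2% of tested genes were higher without overlap and 25.4% did not overlap in either direction, and in females Camk2a did not, against 8.43%. Slc17a8 passed the filter only through the male PiC-MeA libraries, where it was highest, so its separation from a group at 0 is description only. When CPM was taken over total counts, Neurod6 overlapped in males and 1 member instead of 2 did not, where 26% of tested genes did not overlap on that scale.

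**Figure D4:**
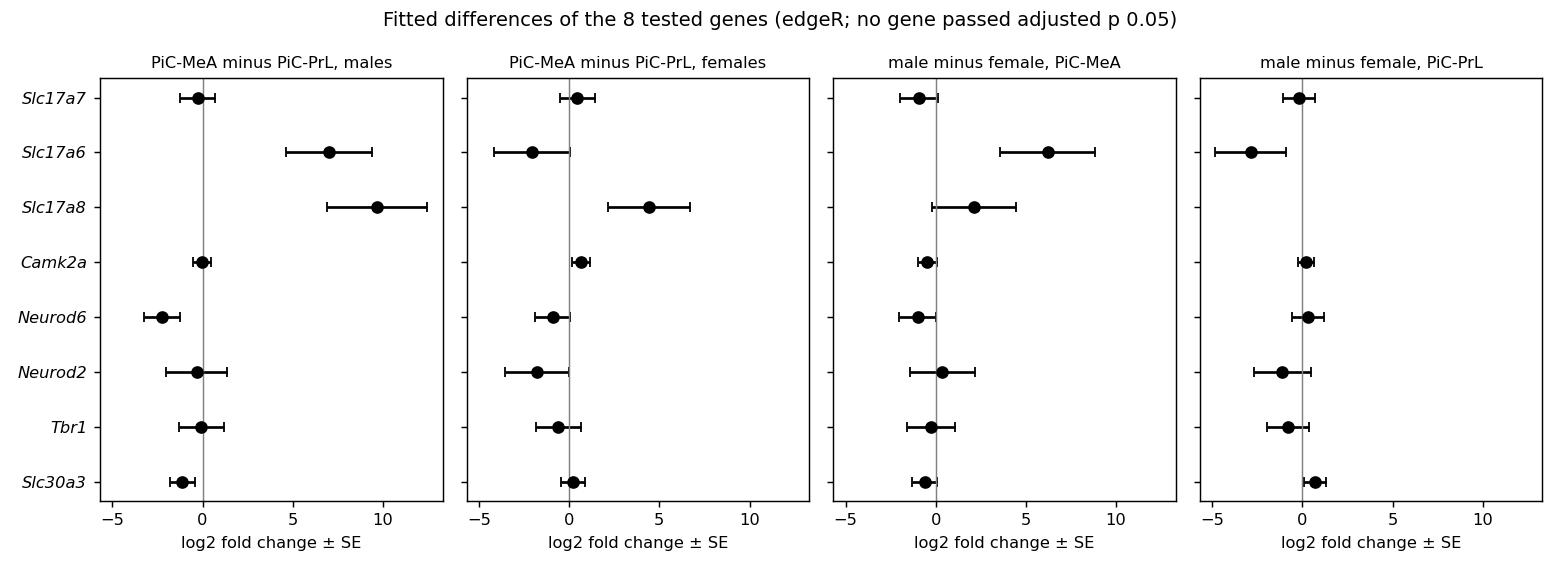
Fitted log2 fold changes of the 8 tested genes (horizontal axes, point and SE) for PiC-MeA minus PiC-PrL in males and in females and for male minus female in PiC-MeA and in PiC-PrL. Slc17a6 is at 7.02 ± 2.40 in the male comparison and no gene passed an adjusted p of 0.05. Slc17a8 values depend on the prior count where a group is at 0, and its value for male minus female in PiC-PrL is left out since both groups lie at or under the limit of 3 counts.

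Calls among genes around the members stand beside shares over all tested genes of 0.603% in males and 0.822% in the projection average. The lists were not tested as sets. Among the 21 other pallial excitatory neuron genes, 1 fell in PiC-MeA against PiC-PrL in males and 0 rose. This was Lmo4, a LIM-only transcriptional cofactor, with 167, 85.3 and 152 CPM in male PiC-MeA and 674, 499, 568 and 592 CPM in male PiC-PrL. Its log2 difference was -2.12 ± 0.42 (SE, edgeR adjusted p = 0.0322) in males and -1.52 ± 0.29 (adjusted p = 0.0198) averaged over both sexes. The male call was lost without any 1 of male PiC-MeA replicates 2 and 3 and male PiC-PrL replicates 2, 3 and 4 (edgeR adjusted p = 0.0515 to 0.120), and the averaged call without replicate 2 of male PiC-MeA (adjusted p = 0.0655) or of female PiC-MeA (adjusted p = 0.0606). The list's median in males was -0.65 with 7 positive and 14 negative, against 0.16 over all genes. Of the 15 bHLH and T-box relatives and partners, 8 were tested and 1 fell, Cask, which encodes a synaptic scaffold kinase that also binds Tbr1 protein. Cask was listed as a partner and not as a relative. The list was chosen with earlier results of these data known, so this call is no result about the list. Cask had 121, 184 and 105 CPM in male PiC-MeA and 208, 268 and 158 CPM in female PiC-MeA, against 762, 1103, 927 and 758 CPM in male PiC-PrL and 601, 601, 321 and 1010.0 CPM in female PiC-PrL, so neither sex overlapped. The Cask difference was -2.70 ± 0.40 log2 units (SE, edgeR adjusted p = 0.00386) in males and -2.14 ± 0.28 (adjusted p = 9.60e-04) averaged over both sexes. Both calls held with each library left out, with edgeR adjusted p of at most 0.0271 in males and 0.00374 in the average.

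Of the 5 relatives and inhibitors of CaMKII, 4 were tested. Camk2n1, which encodes an inhibitor of the kinase, fell in the average over both sexes, where 0.822% of tested genes passed. It had 304, 671 and 699 CPM in male PiC-MeA and 386, 316 and 282 CPM in female PiC-MeA, against 757, 839, 614 and 1757 CPM in male PiC-PrL and 1204, 2828, 1123 and 872 CPM in female PiC-PrL. The log2 difference was -1.51 ± 0.32 (SE, edgeR adjusted p = 0.0358), while Camk2a itself stood at 0.31 ± 0.34 (adjusted p = 0.780). The Camk2n1 call was lost without any 1 of the 6 PiC-MeA libraries, male PiC-PrL replicates 2 and 4 or female PiC-PrL replicate 2 (edgeR adjusted p = 0.0513 to 0.0756), and also with a filter of 10 counts in 7 libraries (adjusted p = 0.0563). None of the 8 tested genes of neuronal glutamate supply passed in any comparison, with a median of -0.20 in males. The smallest p values there belonged to Glud1, glutamate dehydrogenase, at -1.42 ± 0.80 log2 units for the projection average (adjusted p = 0.397), and Got1, aspartate aminotransferase, at -0.62 ± 0.26 for the sex average (adjusted p = 0.401). The Glud1 value was -0.61 without female PiC-PrL replicate 2 and -2.33 without female PiC-MeA replicate 2. Of the 10 zinc transporter and vesicle sorting genes, 8 were tested and 0 passed, with a median of -0.25 in males. Slc30a5, a zinc transporter of the secretory pathway, stood at 2.46 ± 1.40 log2 units for the projection average (adjusted p = 0.408) and Slc30a10, a manganese transporter of the same family, at 2.66 ± 1.90 for the sex average (adjusted p = 0.735). The Slc30a5 value was 1.62 without female PiC-MeA replicate 3, and that of Slc30a10 was 5.45 without female PiC-PrL replicate 1 and 1.52 without male PiC-PrL replicate 2.

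A list of 16 transcription factors of subcortical regions rich in Slc17a6 was set beside the Slc17a6 values. Of these 7 were tested and 0 passed. All 7 fitted values were positive for PiC-MeA minus PiC-PrL in males (median 1.93 log2 units, against 0.16 over all genes) and for male minus female in PiC-MeA (median 3.83, also with Lhx9 at its bound against a group at 0, and 0.12 over all genes). The median in males was 4.17 without the filter on low counts. Over all tested genes, 53.4% of fitted values were positive for the male comparison and 53.6% for male minus female in PiC-MeA. Male PiC-MeA libraries also had a count for more genes than the others, and the part of this in the list's values was not tested. Zic1, a zinc finger factor, had 2.29, 25.8 and 403 CPM in male PiC-MeA, 0, 0.0756 and 2.64 CPM in female PiC-MeA, 2.24, 0, 0 and 0.185 CPM in male PiC-PrL and 0, 0.276, 2.92 and 0.0702 CPM in female PiC-PrL, with edgeR adjusted p = 0.0901 between the projections in males. It passed with DESeq2 (adjusted p = 0.00199), limma voom (adjusted p = 0.0416) and edgeR without the filter on low counts (adjusted p = 0.0130). Its edgeR log2 difference of 7.85 ± 2.58 (SE) was 4.44 without male PiC-MeA replicate 3 (adjusted p = 0.442) and 11.06 without male PiC-PrL replicate 1 (adjusted p = 0.125). Lhx9, a LIM-homeobox factor, had 0.0789, 1.71 and 37.4 CPM in male PiC-MeA and 0 in all 3 female PiC-MeA libraries. As with Slc17a6, male PiC-MeA replicate 3 held the highest value of both genes.

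The genes whose levels followed Slc17a6 most closely over the 14 libraries, out of 12518 tested genes compared after leaving out predicted genes and pseudogenes, were Cep112 (Spearman rho 0.900), Hltf (0.884), Plcb4 (0.884), Cfap69 (0.882) and Cnst (0.876). Cep112 had 17.3, 48.7 and 67.3 CPM in male PiC-MeA, 0.487, 0.227 and 5.21 CPM in female PiC-MeA, 1.22, 0.978, 0.626 and 0.462 CPM in male PiC-PrL and 1.05, 0.461, 3.71 and 30.3 CPM in female PiC-PrL. For Slc17a7 they were St3gal5 (0.837), Syt13 (0.8286), Disp2 (0.815), Rpl18 (0.780) and Bop1 (0.776). Syt13, a synaptotagmin gene, had 141, 82.5 and 71.3 CPM in male PiC-MeA, 199.5, 215 and 70.9 CPM in female PiC-MeA, 82.4, 102, 139 and 158 CPM in male PiC-PrL and 75.2, 141, 142 and 155 CPM in female PiC-PrL. These are descriptions over libraries that share groups and depth, and the highest of so many coefficients are large by selection. Among the members themselves, Slc17a6 stood at rho -0.488 with Slc17a7, -0.607 with Slc30a3, -0.539 with Camk2a and 0.428 with Slc17a8 over the same 14 libraries. With the transcription factors it stood at -0.257 for Neurod6, 0.348 for Neurod2 and 0.264 for Tbr1.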

How the data were processed

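The authors deposited raw counts per gene for 14 libraries. Reads had been trimmed with Trimmomatic 0.39, aligned to mm10 with HISAT2 2.2.1 and counted with featureCounts 2.0.1, per the submitters' processing notes. Neither the annotation release nor the strand and overlap settings of counting are stated in the sources used here. Without molecular identifiers, read counts are not independent molecules, so intervals and limits for 0 counts cover counting error only.

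The deposited counts were fitted as 4 groups over all 14 libraries with edgeR 4.0.16 (R 4.3.3; filterByExpr, minimum count 10 and minimum total 15; TMM factors; robust quasi-likelihood test; Benjamini-Hochberg over 14599 genes; threshold 0.05). Contrasts are PiC-MeA minus PiC-PrL and male minus female. The SE is the fitted log2 change divided by the signed root of F. The procedure was tested on simulated data in which the spread between libraries was capped. Genes with a wider spread were not covered by that test. DESeq2 1.42.0, limma 3.58.1 voom, other filters and factors, a replicate block and each library left out were the alternatives. Exon lengths are unions of all annotated exons in GENCODE M21, in which 55141 of the 55401 listed gene IDs matched without version, and promoter windows come from RefSeq GRCm38.p6. Where an exon union holds retained introns, the level per kilobase is lower than for the main transcript.

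Members and gene lists were chosen with earlier results of these data known. Named genes were all members, the 5 genes most like Slc17a7 and like Slc17a6, list genes that passed in a comparison (otherwise 2 with the smallest p), and the defining markers.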

Additional observations from a re-analysis of the deposited data

Results flagged for a closer look

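In groups of 4 libraries, a library was singled out where its gap to the nearest other library, divided by the range of the group, exceeded Dixon's critical value at the 95% level. For Slc17a6 this held for female PiC-PrL replicate 4, at 51.1 CPM against 0 to 6.06 CPM in the other 3 libraries, and this tube also had the highest summed inhibitory neuron markers, 5692 CPM. For Neurod6 it held for replicate 3 of the same group, at 772 CPM against 212 to 288 CPM in the other 3 libraries. Of 15 gene and group combinations examined these were 2, and chance gives about 1 in 20 where values are normally distributed. The levels were taken as CPM and not as logarithms, and whether they are normally distributed was not tested.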

How the results depend on the processing

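Members called past the threshold numbered 0 in every comparison with each library left out, and also with DESeq2 size factors, the stricter filter, no robust option, the replicate block and the count of detected genes as a covariate. With the stricter filter of 10 counts in 7 libraries only 7 members were tested. Slc17a8 was removed by that filter and could not be called. DESeq2 called 2 for projection in males, 1 for the projection average and 1 for sex by projection. limma voom called 2 for projection in males and 2 for the projection average. edgeR with no filter called 1 for sex in PiC-MeA, 2 for projection in males, 2 for the projection average and 1 for sex by projection. With only the groups compared in the fit, 1 was called for projection in males, Slc17a8 (adjusted p = 0.0456). The causes of these differences were not tested.

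Genes called, in the order sex in PiC-PrL, sex in PiC-MeA, projection in females, projection in males, sex average, projection average and sex by projection, numbered 1017, 777, 628, 2022, 647, 1492 and 1156 with DESeq2, 8, 1761, 31, 2617, 4, 1277 and 729 with limma voom, and 38, 45, 46, 159, 17, 452 and 84 with no filter. With 10 counts in 7 libraries required they numbered 1 for sex in PiC-PrL, 1 for the sex average and 75 for the projection average. Without the robust option 1 gene was called for sex in PiC-PrL, with only the groups compared 987 were called for projection in males, and with detected genes as a covariate 0 were called for projection in males, for the sex average and for the projection average. Samples with the same replicate number were not paired by the labels, and their residuals correlated between -0.0367 and 0.0495 over 19 pairs. The replicate block gave 38 genes for projection in males, 1 for the sex average and 43 for the projection average, and changed no member's call.

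Leaving out each library gave 0 to 1 genes for sex in PiC-PrL, 0 to 14 for sex in PiC-MeA, 0 to 1 for projection in females, 20 to 139 for projection in males, 1 to 2 for the sex average, 39 to 128 for the projection average and 0 to 5 for sex by projection. For projection in males the count was 20, 58 and 29 without male PiC-PrL replicates 2, 3 and 4, 139 without female PiC-MeA replicate 3, and 136, 21 and 25 without male PiC-MeA replicates 1, 2 and 3. For the projection average it was 68 without female PiC-PrL replicate 2, 45 and 53 without male PiC-PrL replicates 2 and 4, 54, 39 and 57 without female PiC-MeA replicates 1, 2 and 3, and 47 and 48 without male PiC-MeA replicates 2 and 3. By CPM of total counts, 1 member did not overlap for projection in males, where 26% of tested genes did not.

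Fitted log2 changes of members kept their sign in 433 of 485 settings outside the left-out libraries and 15 more also passed the threshold, while 37 changed sign, none of them past it. The covariate nearly coincides with male PiC-MeA, so its effect and that of the group cannot be told apart. With it the values were -3.55 for Tbr1, -7.62 for Slc17a8, 3.49 for Slc17a7, -24.69 for Slc17a6, 0.73 for Slc30a3 and 1.45 for Camk2a in sex by projection. They were -2.01 for Slc17a8, -18.16 for Slc17a6 and 0.82 for Slc30a3 in the projection average, and 0.46 for Camk2a, -7.27 for Slc17a6 and 0.67 for Slc17a7 in the sex average. In projection in males they were 2.19 for Camk2a, 0.68 for Neurod2, -30.50 for Slc17a6, 4.15 for Slc17a7, 1.18 for Slc30a3 and -5.83 for Slc17a8. In sex in PiC-PrL they were 5.07 for Slc17a6 and -0.26 for Camk2a, and in sex in PiC-MeA 1.03 for Slc30a3, 2.42 for Slc17a7, -19.61 for Slc17a6, -8.26 for Slc17a8 and 1.18 for Camk2a. Tbr1 for projection in males was 0.12 with 10 counts in 7 libraries, 0.013 with DESeq2, 0.013 with DESeq2 size factors, 1.46 with limma voom and 0.18 with the replicate block. Camk2a there was 0.046 with 10 counts in 7 libraries. limma voom gave 0.41 for Tbr1 in the projection average, 1.54 for Slc17a8 in the sex average and 0.32 for Slc17a7 in sex in PiC-PrL. Slc30a3 in the sex average was -0.015 with no filter and -0.051 with the replicate block, which gave 0.31 for Slc17a8.

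Among list genes named with a fold change, the same covariate gave -12.23 for Zic1 in projection in males, and 0.0056 for Camk2n1, 2.85 for Glud1 and -10.46 for Slc30a5 in the projection average, and with it none of the calls of Lmo4, Cask and Camk2n1 held. The replicate block ended the calls of Lmo4 (adjusted p = 0.0544 in males and 0.0595 in the average) and Camk2n1 (adjusted p = 0.128) and gave 4.52 for Zic1 in projection in males (adjusted p = 0.428), and the filter of 10 counts in 7 libraries that of Camk2n1 (adjusted p = 0.0563).

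Over the left-out libraries the members' changes of sign lay in these ranges. In sex in PiC-PrL, Slc17a7 ran from -0.52 to 0.33. In sex in PiC-MeA, Neurod6 ran from -3.33 to 0.18 and Neurod2 from -0.73 to 1.12. In projection in females, Slc30a3 ran from -0.23 to 0.76, Slc17a6 from -8.39 to 0.24 and Slc17a8 from -0.79 to 5.43. In projection in males, Tbr1 ran from -0.47 to 0.90, Neurod2 from -1.42 to 0.027 and Camk2a from -1.32 to 0.40. In the sex average, Slc30a3 ran from -0.20 to 0.32, Neurod6 from -1.51 to 0.24, Slc17a8 from -1.34 to 2.02, Neurod2 from -0.92 to 0.0055 and Camk2a from -0.78 to 0.078. In the projection average, Tbr1 ran from -0.54 to 0.15, Slc17a7 from -0.27 to 0.36, Slc17a6 from -0.77 to 3.63 and Camk2a from -0.34 to 0.52. Low counts limit Slc17a8, Neurod2, Slc17a6 and Tbr1, with under 10 counts in 10 libraries for Slc17a8, 1 for Neurod2, 6 for Slc17a6 and 1 for Tbr1.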

Other observations

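Of the 7 tested genes of the subcortical list, 5 had their highest level in male PiC-MeA replicate 3, namely Zic1, Lhx9, Tcf7l2, Shox2 and Lef1. The last 3 were chosen for naming after their values were seen. Tcf7l2, a Wnt pathway factor abundant in thalamus, had 17.1, 60.2 and 451 CPM in male PiC-MeA, 0.650, 13.3 and 23.0 CPM in female PiC-MeA, 3.33, 0.163, 12.2 and 28.2 CPM in male PiC-PrL and 23.7, 34.5, 22.6 and 17.2 CPM in female PiC-PrL. Shox2, a homeobox factor, had 0.395, 10.7 and 206 CPM in male PiC-MeA, 0, 0 and 13.8 CPM in female PiC-MeA, 0.0641, 5.30, 0 and 0 CPM in male PiC-PrL and 25.4, 3.22, 21.8 and 0.140 CPM in female PiC-PrL. Lef1, another Wnt pathway factor, had 3.71, 5.36 and 13.4 CPM in male PiC-MeA. The other two peaked elsewhere: Lhx2, a LIM-homeobox factor, at 67.5 CPM in female PiC-PrL replicate 2, and Meis2, a homeobox factor, at 90.1 CPM in female PiC-MeA replicate 3.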
